A study of Homo sapiens with 8 samples.

Results

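The 31 genes described here are induced by the transcription factor p53 in many cell types. They were chosen by name as p53 target genes and not by a rule on the values, but with earlier results of these data known. A gene was read from the array probe sets that carry its symbol alone, and where it had several, from the probe set with the highest mean. Of the 31 genes, 29 had such a probe set and 26 were tested, among 19775 genes with a probe set and 11445 genes tested in all. BTG2 and FDXR were not analysed here. SPATA18, EDA2R and GDF15 were left out of the tests because they stayed under a log2 intensity of 5, close to background, on all 8 arrays.

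The cells were Reh, a human line of B-cell precursors. The design text gives its origin as acute lymphoblastic leukemia, and the sample labels enter non-Hodgkin lymphoma. There were 4 groups of transiently transfected cells with 2 arrays each: control shRNA (titled mock), CBFA2T3 shRNA, IKKβ(EE), and CBFA2T3 shRNA with IKKβ(EE), called both below. CBFA2T3 encodes a transcriptional corepressor, and IKKβ(EE) is a constitutively active form of IκB kinase β, which switches NF-κB on by marking its inhibitors for destruction. Whether a control shRNA was present with IKKβ(EE) alone, when RNA was taken, and what share of the cells was transfected are not stated in the labels. All groups are of 1 cell line, and a change in the share of responding cells cannot be told apart from a change in RNA per cell.

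p53 is a sequence-specific transcription factor that is stabilised by DNA damage, oncogene activity and other stresses. Its targets stop the cell cycle, repair DNA, adjust metabolism, promote cell death and, through MDM2, PPM1D and CCNG1, restrain p53 itself. It binds a pair of decamer half-sites with a short spacer, and many of its targets are also read by other stress-activated factors such as NF-κB and AP-1. No measurement of p53 protein was used.

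Promoter sequence was available from RefSeq on the GRCh38.p14 assembly for 25 of the 31 genes, as 38 windows of 250 bases before and 50 bases after a transcription start. Both strands were searched for 4 motifs: the p53 consensus half-site, the full site made of a pair of half-sites, the κB consensus, and the AP-1 motif TGANTCA. Full-site matches contain half-site matches. The half-site was found in 6 of the 38 windows, belonging to AEN, DDB2, FDXR, PLK2, RPS27L and SESN1, against 6.63% of all 35116 windows of the same length. The full site was found in 1 of the 38, that of DDB2, against 0.0285% of all windows. The DDB2 match lies 6 to 26 bases after the start and reads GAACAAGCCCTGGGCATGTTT, all of it in capitals as the full site. The κB consensus was found in a window of GDF15, TIGAR and ZMAT3, against 11.3% of all windows. AP-1 was found in windows of EDA2R, MDM2 and PERP, against 7.71% of all windows. Only exact matches to a motif were counted, so a site that departs from it by a base was missed and is not in capitals, in MDM2 as elsewhere. Such matches describe the letters and not binding. The sequences below are the 250 bases before a start, read 5′ to 3′ on the gene's strand, for the 3 genes that passed the test for both transfections (PLK2, TP53I3, PERP) and for MDM2. Capitals mark the half-site of PLK2 at bases -132 to -123 from the start, and the AP-1 motif of PERP at bases -101 to -95 and of MDM2 at bases -118 to -112. None of the 4 motifs was found in the TP53I3 window. PLK2 lies on the minus strand at chr5:58460087-58460336, TP53I3 on the minus strand at chr2:24084835-24085084, PERP on the minus strand at chr6:138107420-138107669, and the internal MDM2 start on the plus strand at chr12:68808767-68809016.
PLK2: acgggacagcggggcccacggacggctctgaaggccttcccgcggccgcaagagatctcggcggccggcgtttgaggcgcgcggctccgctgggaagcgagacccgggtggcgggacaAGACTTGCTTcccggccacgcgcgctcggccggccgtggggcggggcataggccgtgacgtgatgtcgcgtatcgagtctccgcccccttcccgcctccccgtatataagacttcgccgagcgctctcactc
TP53I3: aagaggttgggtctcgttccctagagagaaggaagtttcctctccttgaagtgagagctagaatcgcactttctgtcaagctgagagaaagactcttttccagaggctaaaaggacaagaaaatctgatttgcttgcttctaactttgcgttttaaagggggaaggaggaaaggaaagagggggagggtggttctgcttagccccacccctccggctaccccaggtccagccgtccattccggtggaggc
PERP: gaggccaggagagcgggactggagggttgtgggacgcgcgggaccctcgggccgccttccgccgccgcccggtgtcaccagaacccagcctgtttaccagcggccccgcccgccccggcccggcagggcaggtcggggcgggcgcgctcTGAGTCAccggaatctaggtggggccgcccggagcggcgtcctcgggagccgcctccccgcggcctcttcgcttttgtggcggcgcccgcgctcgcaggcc
MDM2: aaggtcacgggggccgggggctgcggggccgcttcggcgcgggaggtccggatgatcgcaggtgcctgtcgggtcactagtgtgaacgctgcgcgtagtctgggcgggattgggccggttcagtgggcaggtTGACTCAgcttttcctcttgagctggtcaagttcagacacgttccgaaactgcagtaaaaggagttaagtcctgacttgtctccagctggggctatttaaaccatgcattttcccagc

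The transfected genes checked the labels. CBFA2T3 stood at a mean log2 intensity of 9.26 in control shRNA cells, 8.26 with its shRNA and 8.03 in both. A fall of CBFA2T3 was called for both (-1.23 ± 0.16, adjusted p = 0.00938), and for the shRNA alone only with the replicate number as a block (adjusted p = 0.0518 without the block and 0.0100 with it). IKBKB, the gene of IKKβ, read 3.97 and 4.02 in control on its responding probe set, 10.85 and 10.39 with IKKβ(EE), and 11.45 and 11.97 with both, and its remaining probe sets did not pass. Of 12 B-cell precursor markers, 11 had a probe set and 10 had a mean of at least 5, VPREB1 being the exception. Of the markers of T, myeloid, erythroid and stromal cells, CD247, ITGAM, HBB, COL1A1 and PECAM1 did so, and the part of other cells in the results was not tested. Correlations between arrays ran from 0.937 to 0.991. Throughout, ± is the standard error (SE) of limma's fit over all 8 arrays, and a gene is said to rise or fall where its Benjamini-Hochberg adjusted p, taken over all 24481 probe sets tested, was under 0.05. The labels call the 2 arrays of a group biological duplicates, and the p-values measure only the spread between such arrays.

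With both transfections, PLK2, TP53I3 and PERP rose, and no p53 target fell. PERP reached the intensity floor only on the arrays with IKKβ(EE), so it could enter the tests only by being high there. Counts of adjusted calls are also given without it, a choice made after the data were seen. Counts at an unadjusted p, and counts of arrays that do not overlap, were not made without it. Called genes were 3 of the 26 tested, or 11.5%, and 2 of 25, or 8%, without PERP, where 8.73% of all genes were called in that comparison and 4.96% were called higher. PERP encodes a membrane protein of cell junctions and apoptosis, PLK2 a polo-like kinase of the stress response, and TP53I3 a quinone oxidoreductase linked to oxidative stress. With the replicate number as a block, 8 of 26 rose (the same 3 with CDKN1A, GADD45A, MDM2, TIGAR and TP53INP1), where 24.1% of all genes were called and 12.5% called higher, and 7 of 25 without PERP. For 15 of 26 genes, PERP among them, both arrays lay above both control arrays, against 26.5% of all genes. For DDB2 and POLH both lay below, against 29.8%. The median difference of the 29 genes from control was 0.22, with 22 of them above 0, where the median over 19775 genes was -0.03 and 44.2% of genes were above 0.

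**Figure D1:**
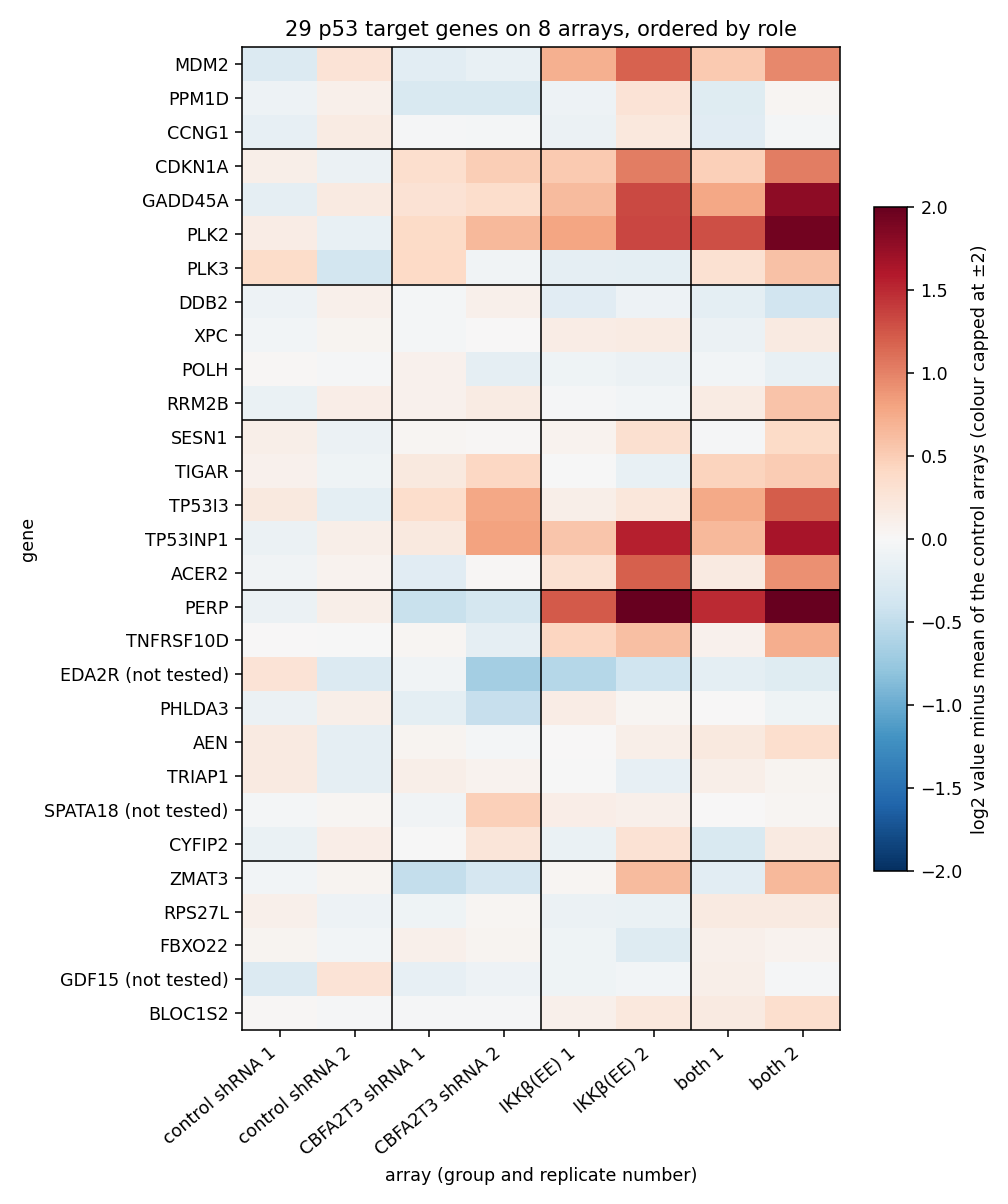
Log2 intensity of each of the 29 p53 target genes (rows, grouped by role) on each of the 8 arrays (columns), minus the mean of the control arrays, with the colour capped at 2 in either direction. All values above 1 lie on arrays with IKKβ(EE), in PERP, PLK2, GADD45A, TP53INP1, TP53I3, ACER2, MDM2 and CDKN1A, and replicate 2 is the redder of each such pair in these genes.

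**Figure D2:**
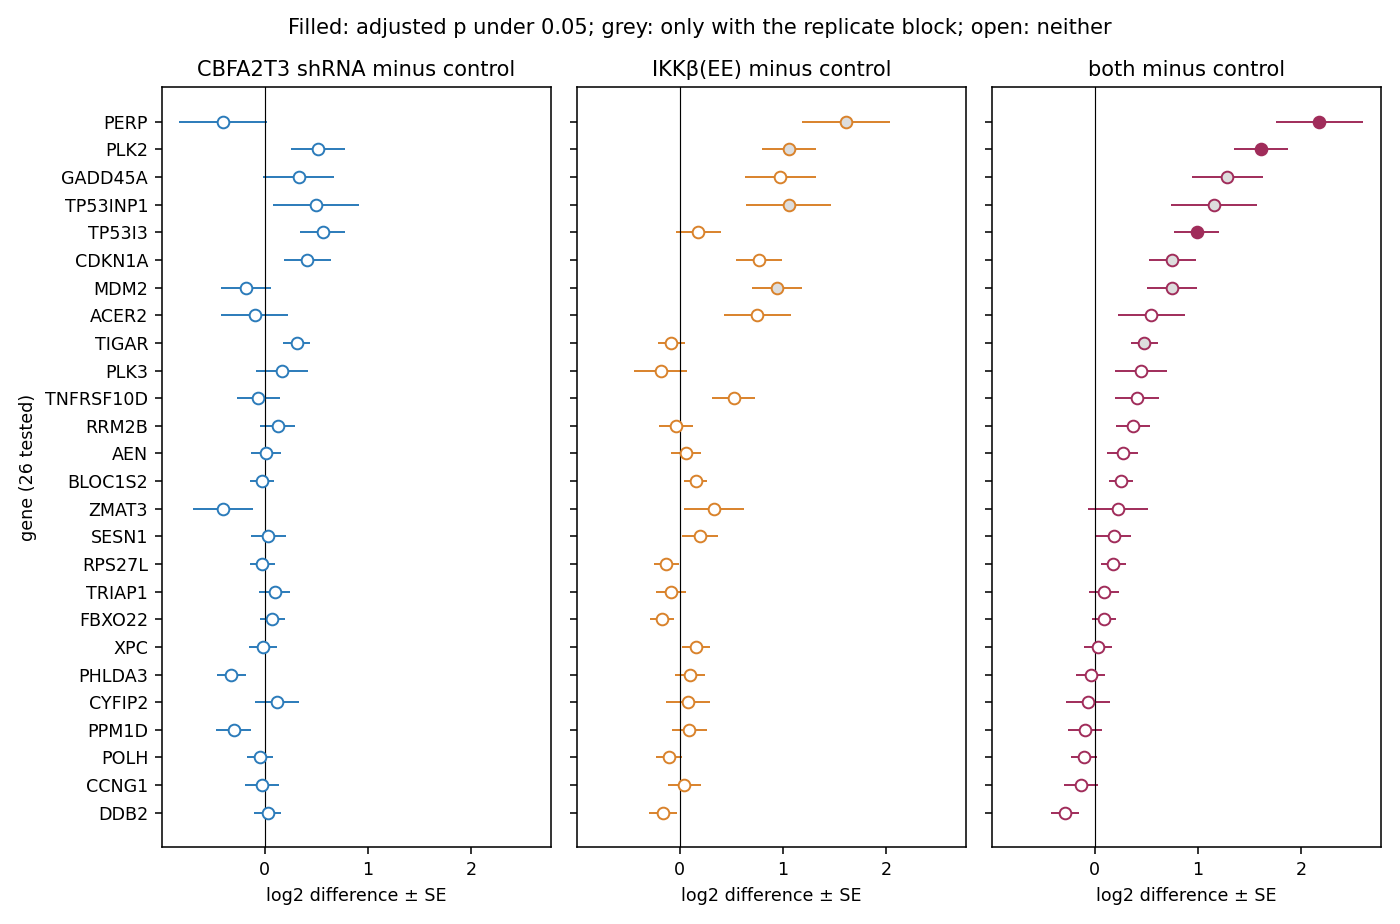
Log2 difference from control shRNA (x axis) with its standard error for the 26 genes tested, in 3 panels for CBFA2T3 shRNA, IKKβ(EE) and both. Filled points passed an adjusted p of 0.05, grey points passed only with the replicate block and open points passed neither. The filled points are PERP, PLK2 and TP53I3 in the panel for both.

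Among the genes of the cell cycle and stress kinases, 1 of 4 tested rose with both transfections and 3 did with the block. Over all genes 4.96% were called higher there, and 12.5% with the block. PLK2 stood at log2 intensities of 7.59 and 7.27 in control, 7.82 and 8.08 with CBFA2T3 shRNA, 8.22 and 8.76 with IKKβ(EE), and 8.72 and 9.37 with both. Every group lay above control without overlap, and the arrays with both overlapped those with IKKβ(EE) alone. The difference of both from control was 1.61 ± 0.26, or 3.06-fold (adjusted p = 0.0176). With IKKβ(EE) alone PLK2 differed from control by 1.06 ± 0.26 (adjusted p = 0.235, and 0.0458 with the block), and with the shRNA alone by 0.52 ± 0.26 (adjusted p = 0.391).

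GADD45A encodes a stress sensor that slows the cell cycle and aids DNA repair. It stood at 9.05 and 9.41 in control, 9.53 and 9.59 with CBFA2T3 shRNA, 9.87 and 10.55 with IKKβ(EE), and 10.01 and 11.02 with both. The 4 arrays with IKKβ(EE) were the highest, and the arrays of both lay 1.02 apart. Both differed from control by 1.28 ± 0.34 (adjusted p = 0.0628, and 0.00686 with the block). CDKN1A, which encodes the cyclin-dependent kinase inhibitor p21, stood at 10.15 and 9.92 in control, 10.37 and 10.52 with the shRNA, 10.55 and 11.05 with IKKβ(EE), and 10.51 and 11.05 with both. All 6 arrays of the other groups lay above both control arrays. Both differed from control by 0.75 ± 0.23 (adjusted p = 0.0848, and 0.0273 with the block), and both differed from IKKβ(EE) alone by -0.02 with a 95% confidence interval of -0.54 to 0.51. PLK3, a related polo-like kinase, reached a log2 intensity of 5 on 4 of 8 arrays, ran from 4.61 to 5.55, and did not pass in any comparison on its brightest probe set. Its other tested probe set differed by 0.58 ± 0.16 for both against control (adjusted p = 0.0637, and 0.0205 with the block), close to background.

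Among the genes of metabolism and redox control, 1 of 5 tested rose with both transfections, against 4.96% of all genes. With the block 3 did, against 12.5%. TP53I3 stood at 7.26 and 6.85 in control, 7.40 and 7.82 with CBFA2T3 shRNA, 7.18 and 7.28 with IKKβ(EE), and 7.82 and 8.27 with both. The arrays with the shRNA were the high ones, and those with IKKβ(EE) alone overlapped control. The difference of both from control was 0.99 ± 0.22, or 1.98-fold (adjusted p = 0.0371). TP53I3 differed from control by 0.56 ± 0.22 with the shRNA alone (adjusted p = 0.264) and by 0.18 ± 0.22 with IKKβ(EE) alone (adjusted p = 0.799). TIGAR, which encodes an enzyme that lowers glycolytic flux, followed a like order. It stood at 9.09 and 8.91 in control, 9.20 and 9.42 with the shRNA, 8.99 and 8.85 with IKKβ(EE), and 9.45 and 9.51 with both. The 4 arrays with the shRNA were higher than the 4 without it. TIGAR in both differed from control by 0.48 ± 0.13 (adjusted p = 0.0679, and 0.0323 with the block).

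TP53INP1 encodes a nuclear stress protein that promotes autophagy and cell death. It stood at 7.75 and 7.98 in control, 8.05 and 8.66 with the shRNA, 8.41 and 9.42 with IKKβ(EE), and 8.51 and 9.52 with both. The arrays of the other groups all lay above control, but replicates of a group with IKKβ(EE) lay 1.00 apart. Both differed from control by 1.15 ± 0.41 (adjusted p = 0.128, and 0.00746 with the block), and IKKβ(EE) alone by 1.05 ± 0.41 (adjusted p = 0.484, and 0.0355 with the block). ACER2, an alkaline ceramidase, stood at 6.15 and 6.28 in control, 5.997 and 6.25 with the shRNA, 6.52 and 7.42 with IKKβ(EE), and 6.40 and 7.13 with both. Its arrays with IKKβ(EE) were the highest and did not overlap control, and its difference of 0.55 ± 0.33 in both did not pass with or without the block (adjusted p = 0.324 and 0.0790). SESN1, a restraint on growth signalling through mTORC1, ran from 8.07 to 8.58 over the 8 arrays and passed in no comparison.

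Among the genes of cell death and survival, PERP rose and 5 of 6 tested did not pass, where 4.96% of all genes were called higher. PERP stood at 4.40 and 4.63 in control, 4.07 and 4.17 with CBFA2T3 shRNA, 5.74 and 6.52 with IKKβ(EE), and 6.01 and 7.38 with both. Its levels without IKKβ(EE) were close to background. Both differed from control by 2.18 ± 0.43 (adjusted p = 0.0280, and 0.0236 with no floor on intensity), a 4.52-fold difference that is uncertain because the control values are near background. A further PERP probe set, which was too dim to be tested, read 3.25 and 2.94 in control and 3.96 and 5.40 with both, and the other 3 PERP probe sets stayed near background. TNFRSF10D, a decoy receptor for the death ligand TRAIL, stood at 6.10 and 6.08 in control, 6.13 and 5.92 with the shRNA, 6.52 and 6.70 with IKKβ(EE), and 6.17 and 6.82 with both. All 4 arrays with IKKβ(EE) lay above the 4 without it, but its difference of 0.41 ± 0.21 in both did not pass (adjusted p = 0.257). PHLDA3, which inhibits AKT, ran from 5.28 to 5.90, and its lowest arrays were those with the shRNA alone. AEN (an exonuclease of apoptosis), TRIAP1 (a small inhibitor of apoptosis) and CYFIP2 (a subunit of the actin-regulating WAVE complex) differed from control by 0.27, 0.09 and -0.06 in both, and none passed. EDA2R, a death receptor, and SPATA18, a factor of mitochondrial quality control, stayed between 3.95 and 4.91.

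The genes that feed back on p53 did not move together. MDM2, the ubiquitin ligase that degrades p53, stood at 10.24 and 10.79 in control, 10.30 and 10.37 with CBFA2T3 shRNA, 11.22 and 11.70 with IKKβ(EE), and 11.04 and 11.48 with both. The 4 arrays with IKKβ(EE) were above the 4 without it. MDM2 differed from control by 0.94 ± 0.24 with IKKβ(EE) alone (adjusted p = 0.247, and 0.0151 with the block) and by 0.74 ± 0.24 with both (adjusted p = 0.102, and 0.00979 with the block). PPM1D, a phosphatase that switches p53 signalling off, ran from 9.25 to 9.83, with its lowest values on the arrays with the shRNA alone. CCNG1, a cyclin that recruits a phosphatase to MDM2, ran from 11.33 to 11.77. The differences of PPM1D and CCNG1 from control in both were -0.10 ± 0.17 and -0.14 ± 0.16, and neither passed.

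**Figure D3:**
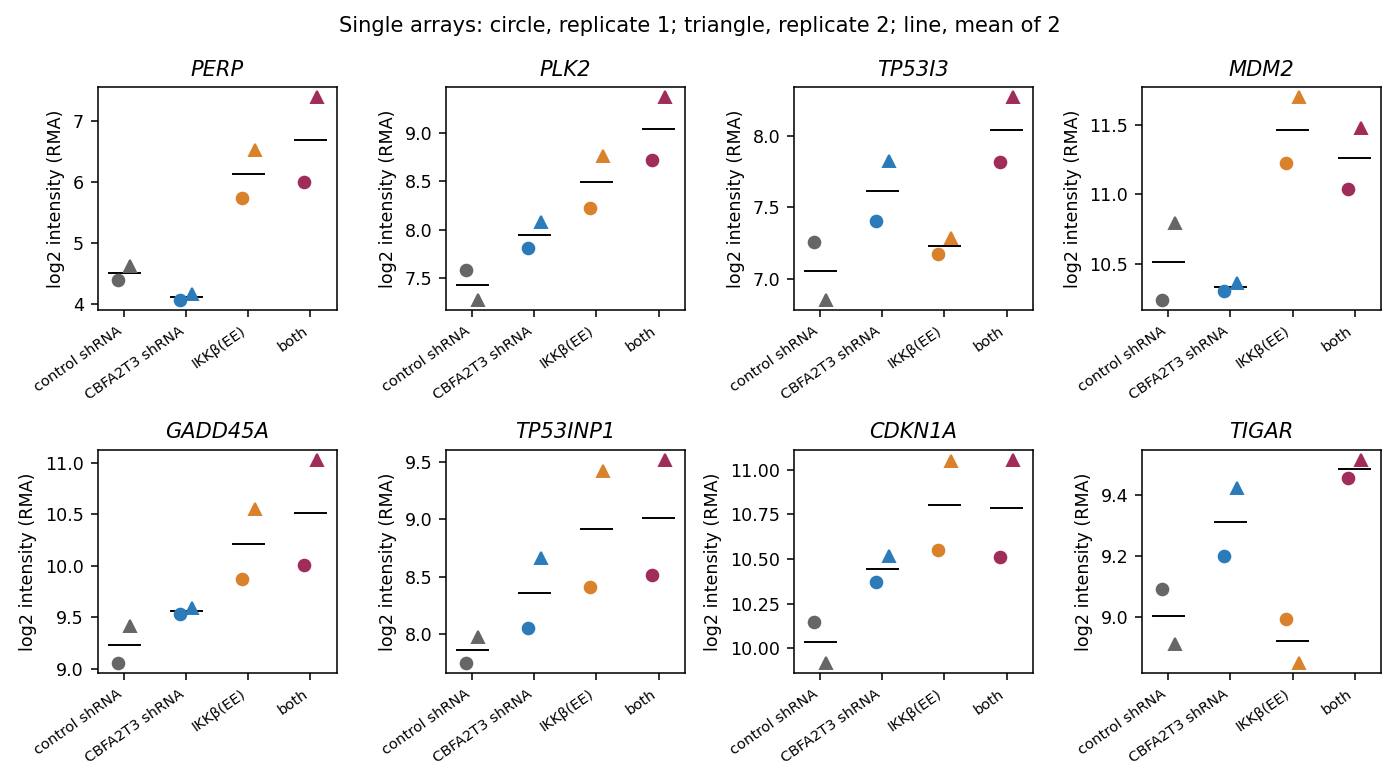
Log2 intensity (y axis, its own scale in each panel) on single arrays for the 8 genes that passed for both against control with or without the replicate block. Circles are replicate 1, triangles are replicate 2, and lines are means of 2 arrays. PERP, MDM2 and GADD45A are highest on the arrays with IKKβ(EE), alone or with the shRNA. TIGAR is highest on the arrays with the shRNA, alone or with IKKβ(EE), from 9.20 to 9.51.

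MDM2 had 10 probe sets, of which 8 were tested, and they did not give 1 answer. The brightest, 229711_s_at, gave the values above. On 205386_s_at the arrays read 4.97 and 5.59 in control, 5.78 and 5.91 with the shRNA, 6.74 and 7.54 with IKKβ(EE), and 6.82 and 7.80 with both. MDM2 rose on that probe set by 2.03 ± 0.38 with both transfections (adjusted p = 0.0246), and on 217373_x_at by 1.57 ± 0.30 (adjusted p = 0.0256). On 225160_x_at the difference was 0.81 ± 0.21 and did not pass (adjusted p = 0.0539, and 0.00532 with the block). On 211832_s_at it was 1.17 ± 0.34 and on 238733_at, close to background, 0.45 ± 0.14. These passed only with the block (adjusted p = 0.0355 and 0.0486). On 217542_at it was 0.14 ± 0.14 and on 244616_x_at -0.17 ± 0.13, and neither passed with or without the block. The files do not say which MDM2 transcript or exon a probe set reads. No level of a probe set is set against that of another here. Among the other genes, probe sets other than the brightest passed for both against control only with the block: besides that of PLK3, 1 of FBXO22 (0.35, adjusted p = 0.0475), 1 of RPS27L (0.51, adjusted p = 0.0403) and 1 of POLH (-0.41, adjusted p = 0.0488).

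**Figure D4:**
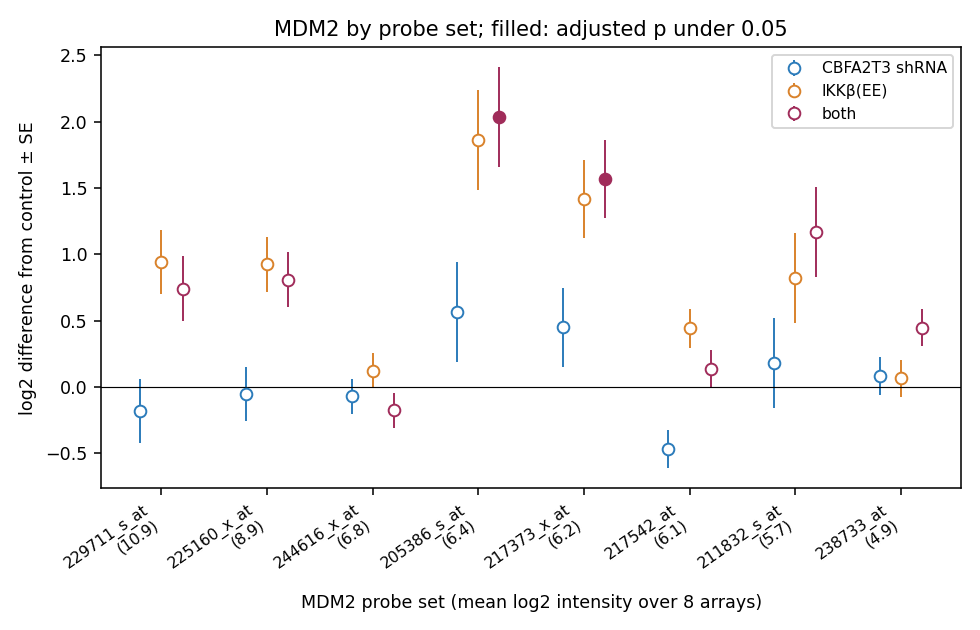
Log2 difference from control with its standard error (y axis) for the 8 tested MDM2 probe sets, ordered by mean intensity (x axis, mean in brackets), for CBFA2T3 shRNA, IKKβ(EE) and both. Filled points passed an adjusted p of 0.05, which were those of 205386_s_at and 217373_x_at for both, while 244616_x_at lies near 0 in all 3.

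None of the 4 DNA repair and nucleotide genes passed on its brightest probe set in any of the 6 comparisons between groups. DDB2, which recognises ultraviolet damage, stood at 9.12 and 9.34 in control, 9.19 and 9.33 with the shRNA, 9.01 and 9.13 with IKKβ(EE), and 9.03 and 8.86 with both. The arrays with both lay below those of control and of the shRNA alone. The difference of both from control was -0.29 ± 0.13 with a 95% confidence interval of -0.60 to 0.03 (adjusted p = 0.220). RRM2B, a ribonucleotide reductase subunit, stood at 8.14 and 8.41 in control, 8.36 and 8.43 with the shRNA, 8.25 and 8.22 with IKKβ(EE), and 8.43 and 8.84 with both. Its highest array was replicate 2 of both, and the difference of 0.37 ± 0.17 did not pass (adjusted p = 0.204). XPC, a partner of DDB2 in damage recognition, and POLH, a polymerase that copies past lesions, ran from 8.64 to 8.94 and from 7.81 to 8.06. The remaining targets did not pass on theirs either. ZMAT3, an RNA-binding regulator of splicing, stood at 9.61 and 9.74 in control, 9.20 and 9.33 with the shRNA, 9.72 and 10.30 with IKKβ(EE), and 9.47 and 10.33 with both. Its lowest arrays were those with the shRNA alone. RPS27L, a ribosomal protein, FBXO22, a ubiquitin ligase subunit, and BLOC1S2, a subunit of lysosome-positioning complexes, differed from control by 0.18, 0.09 and 0.25 in both. GDF15, a secreted stress cytokine, ran from 3.91 to 4.44.

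IKKβ(EE) alone against control gave 0 called p53 targets, where 0.297% of all genes were called. At an unadjusted p under 0.05 limma gave 7 (CDKN1A, GADD45A, MDM2, PERP, PLK2, TNFRSF10D and TP53INP1), all higher, or 26.9%, against 9.99% of all genes and 5.91% higher. PERP is counted in the 7. With the replicate block 4 rose (MDM2, PERP, PLK2 and TP53INP1), or 3 of 25 without PERP, against 3.67% of all genes and 3.16% higher. For 10 of 26, PERP among them, both arrays with IKKβ(EE) lay above both control arrays, against 17.9%. For 3 of 26 both lay below, against 26%. Adding IKKβ(EE) to cells with the CBFA2T3 shRNA gave 1 call of 26, PERP, and 0 of 25 without it, where 0.944% of all genes were called. PERP differed there by 2.58 ± 0.43 from 4.07 and 4.17, values near background, so the size is uncertain (adjusted p = 0.0469, 0.0292 with no floor on intensity and 0.0505 with a floor of log2 6). With the block GADD45A, MDM2, PERP and PLK2 rose in that comparison, or 3 of 25 without PERP, against 5.55% of all genes and 4% higher. At an unadjusted p under 0.05 those 4 and BLOC1S2 passed, all higher, against 16.2% of all genes and 8.04% higher. For 13 of 26, PERP among them, the arrays with both lay above those with the shRNA alone, against 20.3%. For CCNG1 and DDB2 they lay below, against 28.7%.

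CBFA2T3 shRNA alone against control gave 0 called p53 targets by limma, with or without the replicate block, where 0.839% of all genes were called without it and 7.78% with it. These counts take each gene's brightest probe set. On 217373_x_at MDM2 passed with the block only, by 0.45 ± 0.30 (adjusted p = 0.512 without the block and 0.0482 with it). It differed by -0.18 on 229711_s_at, its brightest, by 0.57 on 205386_s_at and by -0.47 on 217542_at, and none of these passed. At an unadjusted p under 0.05 only TP53I3 of the 26 passed, against 16.5% of all genes. Both arrays lay above control for CDKN1A, GADD45A, PLK2, TIGAR, TP53I3 and TP53INP1, or 6 of 26 against 28% of all genes, and below control for 5 of 26, against 23.6%. The median difference of the 29 genes was 0.01, the same as over all genes. Adding the shRNA to cells with IKKβ(EE) also gave 0 called by limma, with or without the block, where 0.175% of all genes were called without it and 4.6% with it. PLK3, RPS27L, RRM2B, TIGAR and TP53I3 had an unadjusted p under 0.05 there, all higher, against 14.4% of all genes and 7.48% higher. The arrays with both lay above those with IKKβ(EE) alone for 8 of 26, against 24.4%, and below for PHLDA3, against 20.6%. TIGAR differed by 0.56 ± 0.13 (adjusted p = 0.138) and TP53I3 by 0.81 ± 0.22 (adjusted p = 0.167). The comparisons share arrays, so their values stand side by side here and are not independent results.

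The interaction, which is the difference made by both minus the sum of the single differences, gave 0 called p53 targets by limma with or without the block. At an unadjusted p under 0.05 it also gave 0, against 1.9% of all genes, and 0.0175% of all genes were called. Its precision was low: for PLK2 it was 0.03 with a 95% confidence interval of -0.83 to 0.90, and for PERP 0.97 with an interval of -0.44 to 2.37. A fit that averaged each transfection over both backgrounds, chosen after the data were seen, used all 4 arrays with a construct against the 4 without. TIGAR rose with the shRNA by 0.44 ± 0.09 (adjusted p = 0.0370) and TP53I3 by 0.68 ± 0.15 (adjusted p = 0.0411). These were 2 of 26, where 7.92% of all genes were called and 3.76% called higher. With the block PLK2 passed as well, by 0.53 (adjusted p = 0.0445), where 22% of all genes were called and 12.5% called higher. PERP, PLK2 and MDM2 rose with IKKβ(EE) by 2.10 ± 0.30, 1.08 ± 0.19 and 0.93 ± 0.17 (adjusted p = 0.0160, 0.0306 and 0.0364). These were 3 of 26, or 2 of 25 without PERP, where 3.44% of all genes were called and 2.63% called higher. For PERP this fit sets the 4 arrays through which it passed the floor against 4 near background. With the block 9 of 26 rose with IKKβ(EE), or 8 of 25 without PERP, where 17.2% of all genes were called and 9.31% called higher. The 6 others were ACER2, CDKN1A, GADD45A, TNFRSF10D, TP53INP1 and ZMAT3. Without the block, called p53 targets were also counted with 1 array left out, and calls over all genes were not counted in those fits. Whether a change in these counts is particular to the p53 targets was not tested. Without 1 array these counts ran from 0 to 3 for the shRNA and from 0 to 8 for IKKβ(EE). For the shRNA the count was 0 without either control array, either IKKβ(EE) array, CBFA2T3 shRNA replicate 2 or replicate 2 of both, 1 without CBFA2T3 shRNA replicate 1 and 3 without replicate 1 of both. For IKKβ(EE) it was 0 without either control array, either CBFA2T3 shRNA array or IKKβ(EE) replicate 2, 1 without replicate 2 of both and 8 without replicate 1 of both.

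The calls for both against control also rested on single arrays. Calls among all 24481 probe sets changed in the same fits, from 2064 with all arrays. Without control replicate 1, control replicate 2 or replicate 2 of both, 0 of the 26 passed, with 183, 82 and 374 probe sets called in all. Without either CBFA2T3 shRNA array, which that comparison uses only for its spread, PLK2 alone passed, with TP53I3 at an adjusted p of 0.0510 and PERP at 0.0519, and 1103 probe sets were called in all. Without either IKKβ(EE) array, PERP and PLK2 passed, TP53I3 was at 0.0571, and 1392 were called in all. Without replicate 1 of both, 7 passed: CDKN1A, GADD45A, PERP, PLK2, TNFRSF10D, TP53I3 and TP53INP1, with 3645 called in all. The call of PERP for both against the shRNA alone was lost without any array except replicate 1 of both, with an adjusted p from 0.0573 to 0.254, and without replicate 1 of both GADD45A and PLK2 joined it. For IKKβ(EE) against control PERP passed without either array of both (adjusted p = 0.0416).

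The replicates themselves differed at several p53 targets. TP53INP1 was higher in replicate 2 by 0.22 in control, 0.61 with CBFA2T3 shRNA, and 1.00 both with IKKβ(EE) and with both transfections. The mean over the 4 groups was 0.71 ± 0.14 (adjusted p = 0.0294). CYFIP2 was higher in replicate 2 by 0.26, 0.24, 0.41 and 0.48 in the same order, with a mean of 0.35 ± 0.07 (adjusted p = 0.0361). These were 2 of 26 on the brightest probe sets, where 8.32% of all genes were called and 5.31% called higher. The other tested CYFIP2 probe set, 220999_s_at, differed by 0.05 ± 0.07 and did not pass (adjusted p = 0.700). MDM2 was called higher in replicate 2 on 205386_s_at (0.63, adjusted p = 0.0347) and 217373_x_at (0.53, adjusted p = 0.0177), which are not its brightest. Leaving out any 1 array ended the call of CYFIP2, and leaving out any array other than a control array ended that of TP53INP1 (adjusted p from 0.0754 to 0.110). Replicate 2 was higher in all 4 groups for 9 of 26 (ACER2, CYFIP2, GADD45A, MDM2, PERP, PPM1D, TP53INP1, XPC and ZMAT3), against 19.2% of all genes, and lower in all 4 for FBXO22, POLH and TRIAP1, against 19.9%.

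The differences between replicates were unequal across groups for several of these genes. GADD45A differed by 0.36 in control and 0.06 with the shRNA, but by 0.68 with IKKβ(EE) and 1.02 with both. PERP differed by 0.23, 0.10, 0.78 and 1.38 in the same order. PLK2 and CDKN1A were lower in replicate 2 of control, by -0.31 and -0.23, and higher in replicate 2 of the 3 other groups. Whether the replicate difference itself changed with the transfection was not tested. The labels do not state what the replicate numbers stand for.

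**Figure D5:**
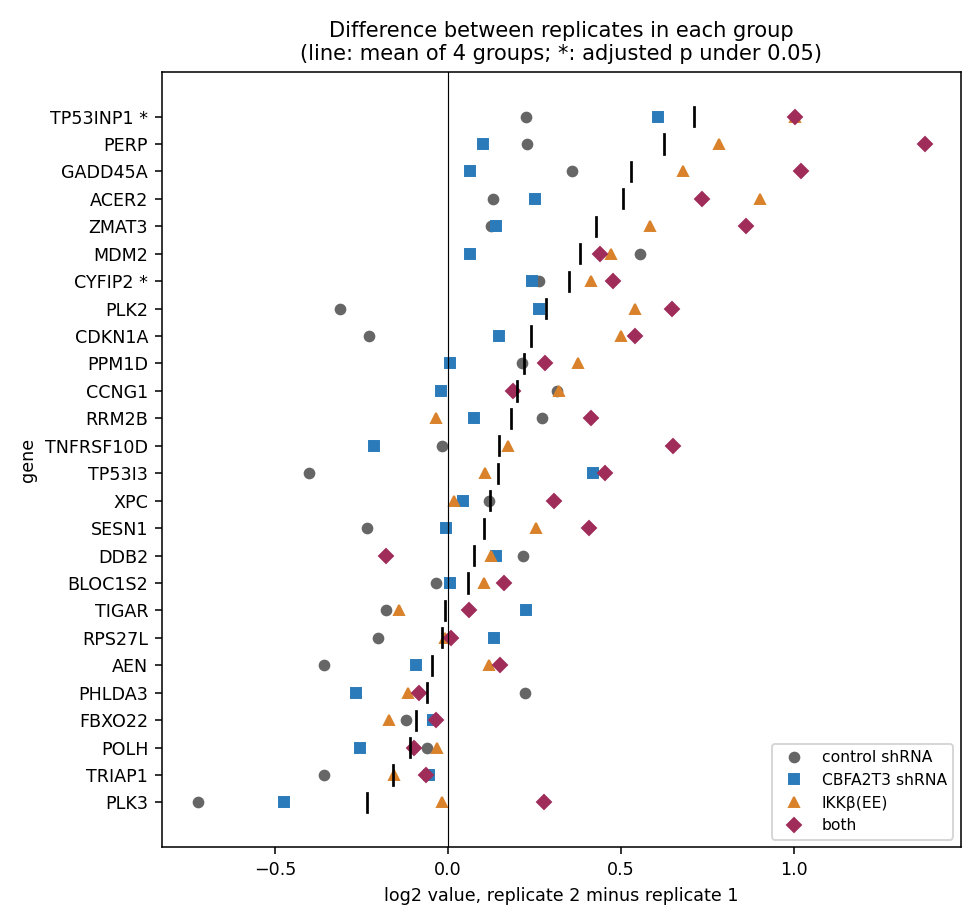
Log2 value of replicate 2 minus replicate 1 (x axis) in each of the 4 groups for the 26 tested genes, with a bar at the mean of the groups and an asterisk at an adjusted p under 0.05. The asterisks mark TP53INP1 and CYFIP2, and the points of the groups with IKKβ(EE) lie farthest right for TP53INP1, PERP, GADD45A, ACER2 and ZMAT3.

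Other genes of the p53 pathway were read from lists that share no member with the 31. The lists overlap each other. ATF3 and SESN2 are in those of other p53-induced genes and of immediate early and stress genes. CHEK1 is in those of p53 regulators and of cell cycle genes. Counts of these lists are therefore not independent, and for both against control ATF3 is counted as a rise in each of its lists. Of 50 other p53-induced genes, 39 were tested, and for both against control 6 rose and 2 fell, where 4.96% of all genes were called higher and 3.77% lower. With the block 13 rose and 3 fell, against 12.5% and 11.6%, and the median difference was 0.28. FAS, the death receptor, rose by 3.90 ± 0.40 (adjusted p = 0.00436), and CD82, a tetraspanin, by 2.15 ± 0.31 (adjusted p = 0.0115). DRAM1, a lysosomal protein of autophagy, fell by 0.79, and APAF1, the scaffold of the apoptosome, fell by 0.72 (adjusted p = 0.0306 and 0.0296). With IKKβ(EE) alone FAS rose by 3.54 (adjusted p = 0.0251), and with the shRNA alone DRAM1 fell by 1.00 (adjusted p = 0.0489). The control mean of FAS was 5.02, close to the floor of log2 5, so the sizes of its rises are uncertain. Of 30 regulators of p53, 23 were tested and 4 fell in both: USP7, a deubiquitinase that acts on p53 and MDM2, by 0.61, PPP1R13L, an inhibitor of p53, by 0.61, and, named after their values were seen, PPP1R13B by 0.60 and COP1, a p53 ubiquitin ligase, by 0.58. None of the 23 rose there without the block and 2 did with it. PPP1R13L had means of 5.40 in control, 5.26 with the shRNA, 4.91 with IKKβ(EE) and 4.79 with both. These lie on either side of the log2 5 floor, so it could enter the tests through the groups in which it was high. It is counted in the 4, and the size of its fall is uncertain. MDM4, the partner of MDM2, differed by 0.13 ± 0.21 in both (adjusted p = 0.731).

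Of 40 cell cycle genes that p53 lowers through p21 and the DREAM repressor complex, 38 were tested. CENPF, a kinetochore protein, fell by 0.52 (adjusted p = 0.0326) and CCNB2, a mitotic cyclin, by 0.50 (adjusted p = 0.0459) for both against control, 2 of 38 against 3.77% of all genes called lower, and with the block 12 fell, against 11.6%. Of the 38, 1 was above 0 and the median was -0.39, where the median over all 11445 genes tested was -0.02. Of 35 immediate early and stress genes, 32 were tested, and 10 rose for both against control (24 with the block), against 4.96% of all genes (12.5%), with a median of 0.95. EGR1, a zinc finger factor, stood at a mean of 4.95 in control and 9.38 with both. DUSP5, a phosphatase of ERK, had means of 3.58 in control, 3.31 with the shRNA, 4.06 with IKKβ(EE) and 7.04 with both. EGR3 had means of 2.63, 2.81, 4.43 and 5.70 in the same order. The means of DUSP5 and EGR3 passed log2 5 only with both transfections, so these genes entered the tests through arrays on which they were high. They are counted in the 10, no count was made without them, and no size is given for them. Between replicates 17 of the 32 were called higher in replicate 2, against 5.31% of all genes, and all 32 were above 0, with a median of 0.56. With the block 12 of them rose with CBFA2T3 shRNA alone, against 4.28% of all genes, and 9 with IKKβ(EE) alone, against 3.16%. Their medians there were 0.36 and 0.55. Their part in the p53 target results was not tested. Of the other lists, 7 p53-induced genes were called higher and ISG20L2 lower in replicate 2, CHEK1 and CHEK2 lower and MDM4 higher, and MYBL2, CDC25A and CHEK1 lower among the cell cycle genes. Over all genes 5.31% were called higher and 3.01% lower in replicate 2.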

How the data were processed

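Total RNA of 8 samples was extracted with a column kit, labelled with biotin and hybridised to Affymetrix U133 Plus 2.0 arrays, per the labels' protocols. The authors deposited log2 intensities, 1 per probe set and array, made with RMA per the submitters' processing notes. RMA gives all arrays a common distribution, so a shift of most transcripts in 1 direction is removed. For RMA, no version or chip definition is given in the sources used here. Arrays have no read depth, and their number limits the precision: the median SE of a difference was 0.15 (log2), and 0.333 is the smallest p of an exact permutation test with groups of 2.

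Of 54675 probe sets, 62 controls were left out, as were 30132 that reached log2 5 on fewer than 2 arrays. The platform annotation gave 41097 probe sets 1 symbol, 1801 several and 11777 none. The remaining 24481 went into limma 3.58.1 (R 4.3.3; lmFit and eBayes, 1 mean per group, 4 residual and 3.54 prior degrees of freedom). There were 7 two-sided comparisons, with Benjamini-Hochberg adjustment over all 24481 within each; the replicate comparison was the replicate term of an additive fit with group. Counts over all genes take each gene's probe set of highest mean. The fit was tested on simulated data.

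Replicate differences correlated over 0.1 in 6 of 6 pairs of groups (0.34 to 0.58), so equal replicate numbers were treated as pairs, on these values and not on the labels. A second fit used the number as a block. Its results stand wherever it changed the call of a member's brightest probe set, or of its other probe sets for both against control. They also stand where a count of called p53 targets changed by more than 1.5 times.

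The rule for named genes took all 31 members, MDM4, CBFA2T3, IKBKB and a gene that is not reported here, and from each list up to 2 called genes at either end. The members, lists and rules were chosen with earlier results of these data known, and so give no independent support. Alternatives were no floor and a floor of log2 6, equal array medians, cyclic loess, trend and robust moderation, an adjustment over 1 probe set per gene, the most variable probe set of each member, the block, the 2 compared groups alone, and each array left out in turn. Averages over both backgrounds were added after the data were seen. Promoter sequences and coordinates are RefSeq's on GRCh38.p14; the arrays' files name no build.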

Additional observations from a re-analysis of the deposited data

Results flagged for a closer look

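The difference made by IKKβ(EE) in RPS27L, a ribosomal protein gene, pointed one way without the CBFA2T3 shRNA and the opposite way with it. Without the shRNA the arrays read 12.01 and 11.80 in control and 11.78 and 11.77 with IKKβ(EE), both below control. With the shRNA they read 11.82 and 11.95 without IKKβ(EE) and 12.08 and 12.09 with it, both above. The difference between these effects was 0.33 ± 0.17 (log2), and limma's interaction test did not pass after adjustment over all probe sets (adjusted p = 1.00). The other 2 tested RPS27L probe sets did not show the fall: IKKβ(EE) alone differed from control by 0.04 on 222487_s_at and by 0.22 on 238935_at.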

How the results depend on the processing

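No value that passed the threshold changed sign under any alternative, and the counts of called p53 targets for CBFA2T3 shRNA against control, both against IKKβ(EE) and the interaction stayed at 0 under every alternative that kept the comparison as defined. With the replicate block the counts became 4 for IKKβ(EE) against control, 8 for both against control and 4 for both against CBFA2T3 shRNA. The block changed no other call between groups on the brightest probe sets. The 2 compared groups alone gave 1 for both against control (PLK2) and 0 for both against CBFA2T3 shRNA. Leaving out PERP gave 0 for both against CBFA2T3 shRNA. A floor of log2 6 gave 0 for the latter and 4 for the replicate term. Without a floor the replicate term gave 1, and with trend and robust moderation 6. The effects averaged over both backgrounds gave 2 for the shRNA and 3 for IKKβ(EE), and with the block 3 and 9. Leaving out 1 array gave 0 to 1 for IKKβ(EE) against control, 0 to 7 for both against control, 0 to 3 for both against CBFA2T3 shRNA, 0 to 1 for the replicate term and 0 to 0 for the 3 others. A left-out array leaves its group with 1 array, assumed to vary like the other groups. Single genes were counted once per comparison and per setting other than a left-out array. Of these combinations 39 brought a gene past the threshold, 5 took it below and 1592 did neither. They include the effects averaged over both backgrounds, each set against a difference from control alone. The most variable probe set of each member raised MDM2 to 2.03 for both against control. Values under log2 5, as for PERP outside the IKKβ(EE) groups, EDA2R, SPATA18 and GDF15, limit any fold. The cause of these changes was not tested, apart from the fewer arrays in the fits named.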
